A study of Mus musculus with 2 samples.

Results

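Lipid droplet and lipolysis genes were followed in mouse heart as a set of 10: the coat proteins Plin2, Plin3, Plin4 and Plin5, the lipases Pnpla2 and Lipe, the lipase regulators Abhd5 and G0s2, and the acyltransferases Dgat1 and Dgat2. They were chosen by symbol, not by any measured value, and all 10 were found among the 55536 annotated genes of the deposited tables. The data are total RNA sequencing of whole heart tissue from adult male mice aged 8 to 10 months from 5xFAD crossed with CAST. 5xFAD is a transgenic line used as a model of brain amyloid whose transgenes are driven by the neuron-directed Thy1 promoter, while CAST is an inbred strain derived from wild mice. The carrier status of each animal is not given in the sources used here. The 2 libraries form a single group with no control or treatment. They are labelled biological replicates 1 and 2, called library 1 and library 2 here, with separate tissue samples but a shared donor identifier. The spread between them may thus be technical or biological, and no comparison of conditions can be made.

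A lipid droplet is a core of triacylglycerol under a phospholipid monolayer, and perilipins coat its surface. DGAT1 and DGAT2 make the triacylglycerol by adding the last acyl chain to diacylglycerol. ATGL, encoded by Pnpla2, removes the first chain, and hormone-sensitive lipase, encoded by Lipe, removes the next. CGI-58, encoded by Abhd5, activates ATGL, and the protein of G0s2 inhibits it. In heart muscle, droplets lie close to mitochondria, and fatty acids from this cycle serve as fuel and as ligands of nuclear receptors.

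Library 1 held 39668187 expected counts over annotated genes and library 2 held 36926504, where an expected count is a read count with shared reads split by an estimator. The 10 genes took between 353 and 10843 counts each per library. Heart muscle markers (Myh6, Myl2, Actc1, Tnnt2, Tnni3, Ryr2 and Pln) summed to 28389.5 and 28195.6 TPM (abundance of transcripts scaled for their length and for the library total) in library 1 and library 2, and all 7 were detected. Adipocyte markers were low but unequal, at a summed 25.6 and 60.3 TPM, and are set beside the results below. Errors are the SD over both libraries (n = 2), given after the mean. TPM is the only scale on which levels of different genes are compared.

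All 10 genes were detected, and their TPM ran from 8.58 ± 1.36 for Dgat1 to 153 ± 12.6 for Dgat2. Dgat2 and Pnpla2 lay at percentiles 97.1 and 96.9 of the 10754 nuclear protein-coding genes with at least 1 TPM in both libraries, and Dgat1 lay at percentile 54.0. From the top the order was Dgat2, Pnpla2, Plin3, Plin4, Plin5, Plin2, G0s2, Abhd5, Lipe and Dgat1. The library values of 3 pairs of neighbours overlapped, namely Dgat2 with Pnpla2, Plin4 with Plin5, and Plin5 with Plin2, so their order is within the spread. The other 6 neighbouring pairs did not overlap. In the second deposited quantification, made by another estimator, Plin2 at 52.9 TPM stood above Plin4 at 47.3 and Plin5 at 45.5. The rest of the order held for the means. Counting only annotated complete protein-coding transcripts gave the order Dgat2, Plin4, Plin5, Pnpla2, Plin3, G0s2, Plin2, Lipe, Abhd5 and Dgat1. Pnpla2 then stood below Plin4 and Plin5, at a mean of 32.1 TPM.

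**Figure D1:**
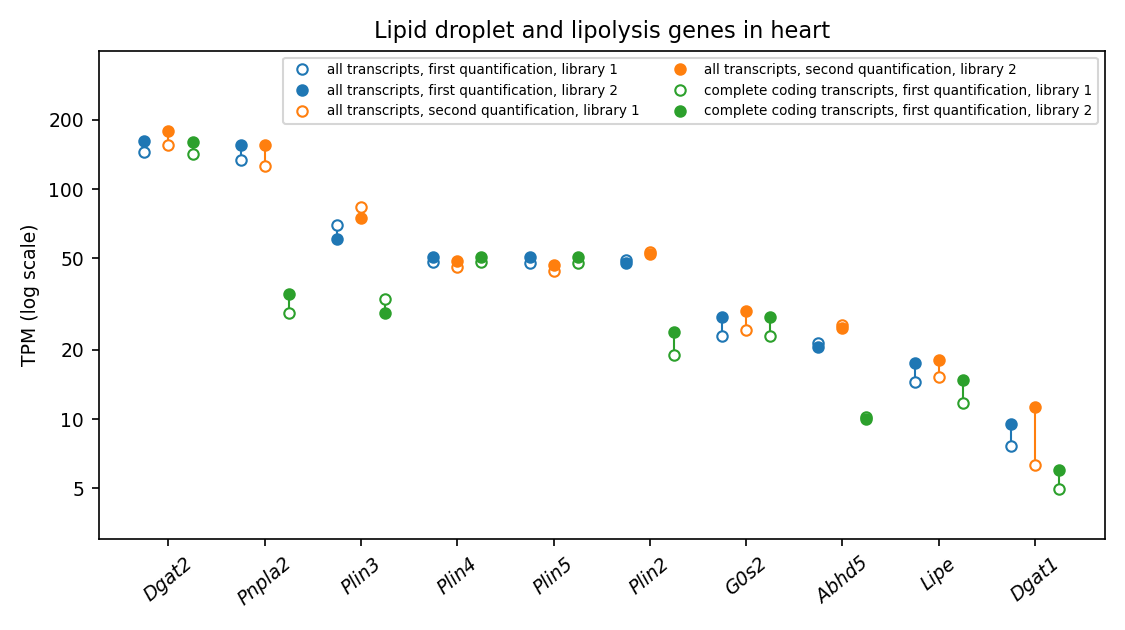
TPM (log scale) of the 10 genes in library 1 (open points) and library 2 (filled points), for all transcripts in both quantifications and for complete coding transcripts in the first. Dgat2 and Pnpla2 stand highest in both quantifications, and the green points of Pnpla2, Plin3, Plin2 and Abhd5 lie well below their blue points.

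Among the perilipins, 4 members had levels within 1 narrow band and none dominated. Plin3, the widely expressed perilipin found also in the cytosol, was at 69.67 TPM in library 1 and 60.96 in library 2, the highest of the family in both. Plin4, a perilipin with a long run of repeats, was at 48.16 and 50.67 TPM. Plin5, the perilipin of oxidative tissues that tethers droplets to mitochondria, was at 47.54 and 50.77 TPM. Plin2, the coat protein whose level follows stored lipid in many cells, was at 49.24 and 47.78 TPM. Library values of Plin2, Plin4 and Plin5 thus overlapped one another, and both Plin3 values lay above them. Plin1, the coat protein of adipocyte droplets and no member of the set, was at 1.79 and 8.21 TPM.

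Of the summed TPM of Plin1 to Plin5, Plin3 held 30.1% ± 3.03, Plin4 22.7% ± 0.669, Plin5 22.6% ± 0.904, Plin2 22.3% ± 0.619 and Plin1 2.29% ± 2.07. This near-even split depended on which transcripts were counted. With complete coding transcripts only, a setting chosen after seeing the data, Plin4 and Plin5 held 32.2% and 32.0%, Plin3 20.4% and Plin2 14.0%. The difference lies in short annotated transcripts of Plin3 (ENSMUSG00000024197.10, chromosome 17, 56277476 to 56292873, minus strand) and Plin2 (ENSMUSG00000028494.12, chromosome 4, 86648386 to 86670060, minus strand). The fragment Plin3-202, of 562 bases, has another first exon and an incomplete end. It held 52.3% ± 0.454 of Plin3 TPM but 12.5% ± 0.198 of its counts, since TPM divides by length. In the second quantification it held 63.9% ± 0.264 of TPM. The full-length Plin3-201, coding for 437 residues, was at 33.43 and 28.86 TPM.

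Plin2 showed a similar split between a full transcript and short ones. Plin2-201, which codes for 425 residues, was at 19.10 and 23.88 TPM, and held 44.4% ± 7.92 of TPM but 72.2% ± 6.21 of counts. The noncoding Plin2-208, of 588 bases, was at 13.05 and 11.03 TPM, and the incomplete Plin2-205, of 683 bases, at 11.37 and 10.69. So the full-length Plin2-201 was higher in library 2 while Plin2-208 and Plin2-205 were lower. Plin2-208 is not marked as incomplete and ends at 86648386, beyond the end of Plin2-201 at 86656565. The estimators divided the incomplete forms differently: the first gave Plin2-205 22.7% ± 0.504 of TPM and the second gave it 2.04% ± 2.88. Likewise Plin2-207 was given 3.08% ± 1.73 and 22.8% ± 1.18, and Plin2-206 3.36% ± 3.54 and 14.4% ± 4.16. Plin2-201 led in both.

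Plin4 (ENSMUSG00000002831.13, chromosome 17, 56100591 to 56109803, minus strand, mm10) has 2 annotated transcripts, Plin4-201 and Plin4-202, that are identical after the first base and code for the same 1403 residues. The first quantification gave Plin4-202 48.16 and 50.46 TPM and Plin4-201 0 and 0.21, while the second gave Plin4-201 52.9% ± 4.92 of the TPM. The 2 transcripts cannot be told apart by sequence beyond that base, and Plin4 is described here as 1 unit. Its coding sequence repeats itself. Of shifts of 10 to 400 bases against itself, the one with the highest identity was 297 bases. At that shift it matched at 59.9% of positions, against a median of 25.4% over all these shifts. At the same shift, chosen on Plin4, the coding sequences of Plin2, Plin3 and Plin5 matched at 30.2%, 28.7% and 30.7%. In all, 60.8% of Plin4 coding bases lay in neighbouring units that were at least 80% identical. The most alike pair of neighbouring units of this length is printed 5′ to 3′, from the GENCODE M21 transcript at chr17:56106651-56106947 and chr17:56106354-56106650, minus strand, mm10. They are shown so that the repeat can be seen, and capitals mark the 15 bases that differ between them.
Plin4 unit 1: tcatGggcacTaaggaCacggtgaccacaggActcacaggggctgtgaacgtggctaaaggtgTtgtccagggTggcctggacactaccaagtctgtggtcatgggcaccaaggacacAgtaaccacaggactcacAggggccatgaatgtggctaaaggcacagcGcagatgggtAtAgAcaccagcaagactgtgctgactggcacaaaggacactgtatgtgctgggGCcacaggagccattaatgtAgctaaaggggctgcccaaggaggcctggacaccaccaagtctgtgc
Plin4 unit 2: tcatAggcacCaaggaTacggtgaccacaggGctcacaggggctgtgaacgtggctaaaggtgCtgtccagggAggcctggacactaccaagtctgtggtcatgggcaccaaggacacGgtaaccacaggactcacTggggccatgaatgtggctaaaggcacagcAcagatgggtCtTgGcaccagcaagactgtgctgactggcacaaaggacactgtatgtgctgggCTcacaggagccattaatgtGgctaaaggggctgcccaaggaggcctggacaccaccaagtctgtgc
These units, chosen as the most alike, are 94.9% identical and follow each other without a gap. The deposited TPM interval of Plin4 ran from 46.19 to 48.13 in library 1 and from 48.55 to 50.60 in library 2, so in both libraries the deposited estimate lay just above its own interval.

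Plin5 (ENSMUSG00000011305.11, chromosome 17, 56111601 to 56117596, minus strand) lies 1798 bases from Plin4 on the same strand. Its 2 annotated transcripts start 298 bases apart and code for 463 residues each. Plin5-201, which starts upstream, held 67.4% ± 1.64 of Plin5 TPM, and Plin5-202 held 32.6% ± 1.64. In the second quantification the shares were 61.4% ± 9.76 and 38.6% ± 9.76, so the upstream start led in both. RefSeq promoters for these starts are printed 5′ to 3′ because transcripts from both were present. They are sequences of GRCm38.p6, the assembly that mm10 is built on, with 250 bases before the RefSeq start and 50 after. They lie at chr17:56117499-56117798 and chr17:56117249-56117548, minus strand, and overlap by their ends. The GGGCGG at chr17:56117532-56117537 lies in both. The first RefSeq start is downstream of the Plin5-201 start at 56117596, so that window holds fewer than 250 bases before it. Capitals mark AGGTCA, the half-site read by many nuclear receptors, and GGGCGG, the core of a GC box, on either strand.
Plin5 promoter 1: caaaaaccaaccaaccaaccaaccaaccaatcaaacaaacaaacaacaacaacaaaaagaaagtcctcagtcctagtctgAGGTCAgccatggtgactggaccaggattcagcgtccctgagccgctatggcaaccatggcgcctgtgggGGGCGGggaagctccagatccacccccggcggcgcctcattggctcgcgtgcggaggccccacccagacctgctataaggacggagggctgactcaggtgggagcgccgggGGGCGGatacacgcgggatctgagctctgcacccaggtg
Plin5 promoter 2: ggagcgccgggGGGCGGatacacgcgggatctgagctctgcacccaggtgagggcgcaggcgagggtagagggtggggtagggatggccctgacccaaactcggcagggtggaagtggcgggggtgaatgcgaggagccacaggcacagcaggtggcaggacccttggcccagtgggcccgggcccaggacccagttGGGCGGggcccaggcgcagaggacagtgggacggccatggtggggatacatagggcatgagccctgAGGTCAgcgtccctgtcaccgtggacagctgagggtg
AGGTCA was found in both Plin5 promoters and in those of Plin2 and Abhd5, 4 of 10 promoters of 3 members. RefSeq promoters were matched for 8 members, not for Dgat1 and Dgat2. Of all 32851 promoters in the table, 16.3% held AGGTCA. The GC box core GGGCGG was in 8 of 10 promoters of 7 members, against 35.7% of all, and CACGTG was in 2, those of Plin2 and an upstream start of Lipe, against 7.15%. TATAAA was in 0 of 10, against 13.6%, and a direct repeat of AGGNCA with 1 base between was in 0 of 10, against 0.381%. A match describes letters in these windows and is not evidence of binding.

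Of the lipases, Pnpla2 stood far above Lipe. Pnpla2 was at 133.47 and 155.49 TPM in library 1 and library 2, and Lipe was at 14.5 and 17.63. The ratio of Pnpla2 to Lipe was 9.20 and 8.82, which differ little beside their mean of 9.01 ± 0.272. Both genes were higher in library 2, so the ratio moved less than either level. The size of the ratio again rested on the transcripts counted: it was 4.03 over all coding transcripts and 2.42 over complete coding ones.

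The leading transcript of Pnpla2 (ENSMUSG00000025509.15, chromosome 7, 141455198 to 141460743, plus strand) is one that the annotation classes as subject to nonsense-mediated decay, the pathway that degrades mRNAs with early stop codons. It, Pnpla2-201, was at 77.95 and 88.29 TPM. The complete coding transcripts Pnpla2-202 and Pnpla2-203 were at 22.94 and 27.42 TPM and at 6.04 and 7.73 TPM. The incomplete Pnpla2-206 was at 21.31 and 27.12 TPM. Transcripts of the decay class held 59.7% ± 2.15 of Pnpla2 TPM, 66.8% ± 1.80 of its counts and 53.9% ± 4.49 of TPM in the second quantification. They led in both libraries by both estimators.

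What marks the decay class of Pnpla2 is an extra exon of 82 bases in the first intron, at chr7:141456568-141456649 of mm10. Its length is not a multiple of 3, and it brings a stop codon in frame. The junction is printed from the GENCODE M21 transcript, 5′ to 3′, from the end of the first exon into the extra exon, with the stop codon in capitals.
Pnpla2 exon 1 into the inserted exon: ctgggtgatcttgagcagctagaacaaTGA
Reading from the annotated start, Pnpla2-201 stops after 70 codons, with 1050 bases between the stop codon and the last exon junction. Pnpla2-203, which lacks the extra exon, codes for 486 residues. A further exon of 168 bases, at chr7:141458592-141458759, adds 56 codons without shifting the frame. It is printed because its presence separates Pnpla2-203 from the 430-residue form of Pnpla2-202.
Pnpla2 cassette exon: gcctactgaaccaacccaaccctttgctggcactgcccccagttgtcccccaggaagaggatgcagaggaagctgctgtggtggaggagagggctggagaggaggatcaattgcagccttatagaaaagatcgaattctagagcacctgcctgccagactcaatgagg
Transcripts with this exon held 81.1% ± 0.795 of Pnpla2 TPM and 76.7% ± 5.01 in the second quantification. Most of this was the decay class, at 59.7% and 53.9% of TPM, in which the exon lies after the early stop codon. Pnpla2-203, the complete coding transcript with the exon, held 4.75% ± 0.315 and 2.93% ± 1.48. Pnpla2-202, which skips it, held more, at 17.4% ± 0.316 and 21.9% ± 2.98.

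The assignment to Pnpla2-201 rests on more than its extra exon. Pnpla2-201, Pnpla2-202 and Pnpla2-204 end within 20 bases of one another, near base 141460092, whereas Pnpla2-203 ends at 141460743. Transcripts with the near end held 77.1% ± 1.84 of Pnpla2 TPM. The annotation holds 0 transcripts that have the 168-base exon and the near end without the extra exon. An RNA of that make-up would have to be shared out among the annotated ones. How many reads crossed the junction of the extra exon is not given in tables of this kind, and the part of this in the 59.7% was not tested.

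**Figure D2:**
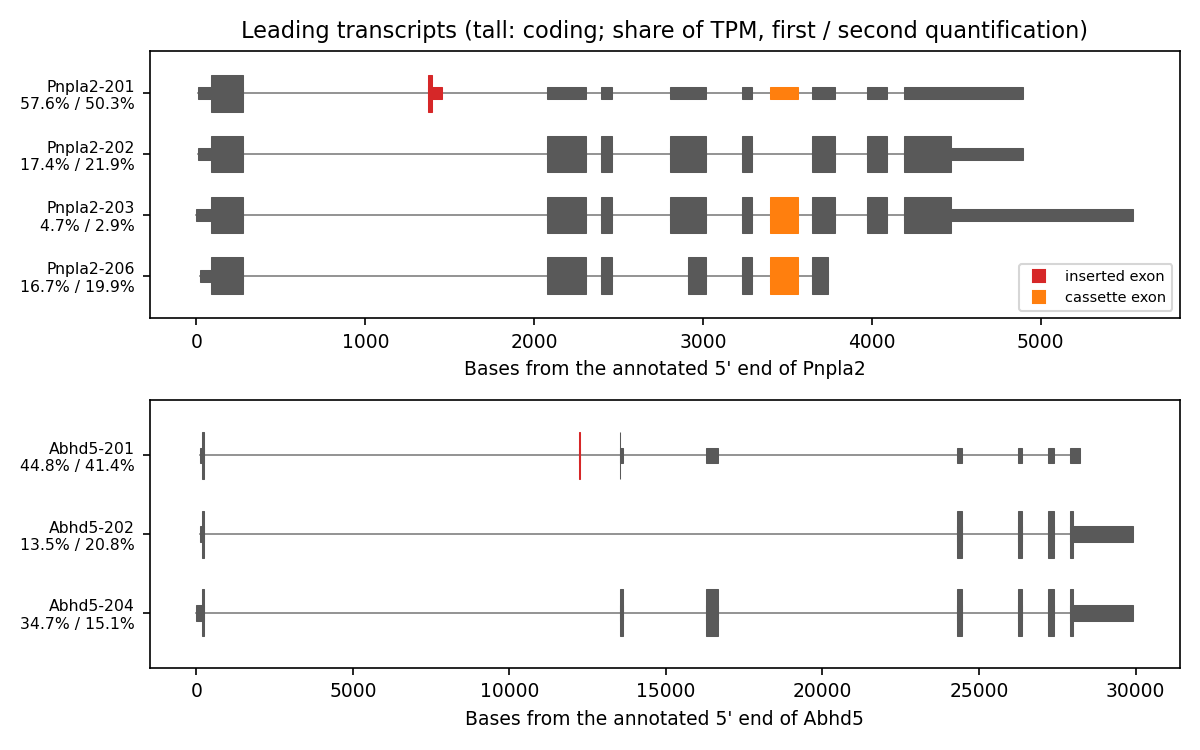
Exon models of the leading Pnpla2 and Abhd5 transcripts in bases from the annotated 5′ end of each gene, with tall blocks for coding sequence and each transcript's share of TPM in the first and second quantification beside its name. The transcripts with the inserted exon (red), Pnpla2-201 and Abhd5-201, hold the largest single share of each gene in both quantifications.

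Lipe (ENSMUSG00000003123.15, chromosome 7, 25379527 to 25398710, minus strand) is transcribed from several starts, and its isoforms differ at the amino end. Lipe-208 was at 6.46 and 7.56 TPM and Lipe-202, which starts 882 bases upstream, at 4.64 and 6.32. Both code for the 759-residue enzyme, and together they were most of the gene. Lipe-208 held 43.8% ± 1.21 of TPM and 42.3% ± 2.66 in the second quantification. Lipe-202 held 34.0% ± 2.70 and 28.3% ± 6.005. Lipe-201, which starts a further 6273 bases upstream and codes for 802 residues, held 4.58% ± 0.513 and 3.95% ± 0.562. Lipe-204, with the longest coding sequence at 1072 codons, was at 0.06 and 0 TPM. Among the small remaining forms, the retained-intron Lipe-207 held 12.2% ± 3.58 of TPM and 2.04% ± 0.632 of counts, and the incomplete Lipe-205 held 10.1% ± 1.47 of TPM in the second quantification. The antisense gene 4732471J01Rik spans Lipe on the other strand, at 0.225 ± 0.0919 TPM. Whether strand was used in counting is not given in the sources used here, though the kit was directional.

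The activator and the inhibitor of ATGL were both far below the lipase in RNA. Abhd5 (ENSMUSG00000032540.16, chromosome 9, 122351608 to 122381524, plus strand) was at 21.51 TPM in library 1 and 20.49 in library 2, or 0.146 ± 0.0208 of the Pnpla2 level. G0s2 (ENSMUSG00000009633.3, chromosome 1, 193272161 to 193273217, minus strand) was at 22.96 and 27.77 TPM, or 0.175 ± 0.00465 of the Pnpla2 level. G0s2 was above Abhd5 in both libraries of the first quantification. In the second, G0s2 was at 24.3 and 29.7 TPM and Abhd5 at 25.6 and 24.8, so their order turned in library 1. Against complete coding Pnpla2 transcripts, the ratio was 0.319 for complete coding Abhd5 and 0.791 for G0s2. G0s2 has 1 annotated transcript, which codes for 103 residues, so only the Pnpla2 side of its ratio moved. It lies inside Lamb3, which is on the opposite strand at 3.72 ± 0.141 TPM.

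Abhd5 resembled Pnpla2 in its transcripts. Its leading transcript by TPM in both quantifications, Abhd5-201, is also of the decay class and also carries an exon that the complete coding transcripts lack, here of 50 bases at chr9:122363815-122363864. It was at 10.39 and 8.48 TPM, and held 44.8% ± 4.89 of Abhd5 TPM, 27.8% ± 2.63 of its counts and 41.4% ± 3.30 of TPM in the second quantification. The extra exon is printed from the GENCODE M21 transcript, 5′ to 3′, running on into the next exon up to the early stop codon in capitals, to show where the frame ends.
Abhd5 inserted exon to the stop codon: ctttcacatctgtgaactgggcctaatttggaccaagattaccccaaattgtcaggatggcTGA
Abhd5-201 stops after 38 codons, and 899 bases lie between that stop and the last junction. Abhd5-204, which codes for the 351-residue protein, was at 7.30 and 7.26 TPM and took 51.2% of the gene's counts. Abhd5-202, which lacks a pair of internal exons and codes for 198 residues, was at 2.96 and 2.73 TPM. The estimators disagreed on these forms: the first gave Abhd5-204 34.7% ± 1.06 of TPM and the second 15.1% ± 1.07, and Abhd5-202 held 13.5% ± 0.309 and 20.8% ± 0.751. A further decay-class form, Abhd5-205, held 3.39% ± 4.797 and 18.2% ± 4.24. Here too the end of the transcript differs: Abhd5-201 ends at 122379825 and the coding forms at 122381524. The annotation holds 0 transcripts with the former end that lack the extra exon, and the part of this in the share of Abhd5-201 was not tested.

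Of the summed TPM of both acyltransferases for the final step of triacylglycerol synthesis, Dgat2 held almost all. Dgat2 (ENSMUSG00000030747.5, chromosome 7, 99153658 to 99182719, minus strand), the acyltransferase best known for using newly made fatty acids, was at 144.43 and 162.22 TPM. Dgat1 (ENSMUSG00000022555.12, chromosome 15, 76502015 to 76511953, minus strand), an unrelated enzyme of the endoplasmic reticulum that also takes up fatty acids returned from lipolysis, was at 7.62 and 9.54 TPM. Dgat2 thus held 94.7% ± 0.384 of their sum, and its level was 18.0 ± 1.38 times that of Dgat1. Among complete coding transcripts the ratio was 27.7. Dgat2-201 alone, coding for 388 residues, held 98.8% ± 0.00840 of Dgat2 TPM and 89.6% ± 0.441 in the second quantification, where the incomplete Dgat2-203 held 8.94% ± 0.472. Dgat1-201, coding for 498 residues, held 64.1% ± 1.43 of Dgat1 TPM and 82.8% ± 0.606 of its counts. Forms with a retained intron held 27.1% ± 3.98 of Dgat1 TPM, the most of any of the 10 genes, with Dgat1-203 alone at 15.1% ± 3.48. Processed Dgat1-204 held 13.0% ± 18.2 of TPM in the second quantification, a spread larger than its mean. The total of Dgat1 in that quantification was 6.31 and 11.3 TPM, further apart than in the first. At 353 and 407 counts, Dgat1 was the least sampled of the 10.

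Across the set, annotated class thus divided the genes into 3 kinds by share of TPM. Plin4, Plin5 and G0s2 consisted only of complete coding transcripts, and Dgat2 was 98.8% or 89.6% complete coding, by the first or second quantification. Lipe and Dgat1 were mostly complete coding, at 82.5% ± 1.72 and 64.1% ± 1.43 of TPM. In the second quantification Dgat1 was at 80.3% in library 1 and 47.9% in library 2. Abhd5, Plin3, Plin2 and Pnpla2 were under 50% complete coding, at 48.2% ± 0.747, 47.7% ± 0.454, 44.4% ± 7.92 and 22.2% ± 0.631. By counts their complete coding shares were 67.4%, 87.5%, 72.2% and 23.9%, so only Pnpla2 was under 50% on that scale. The 10 genes have 56 annotated transcripts, and the leading transcript was the same in both quantifications for 9 of 10, all but Plin4. An annotated class says what the sequence could encode. Translation and decay were not measured.

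**Figure D3:**
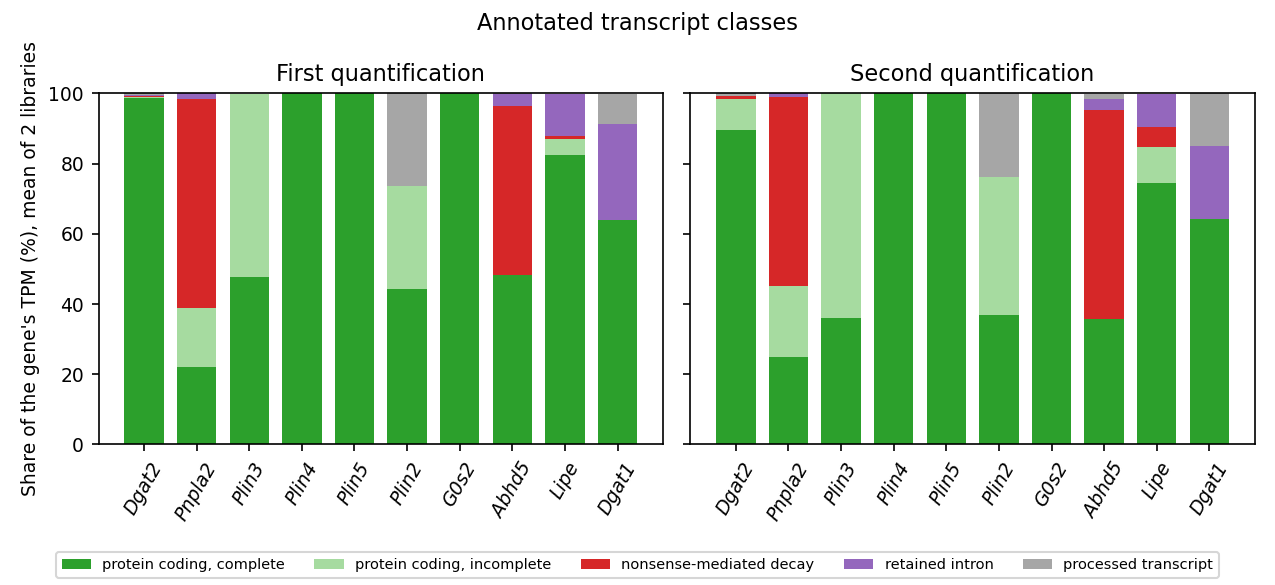
Share of each gene's TPM (%, mean of the 2 libraries) by annotated transcript class, in the first and second quantification. Pnpla2 and Abhd5 carry large decay-class shares (red), Plin3 and Plin2 large incomplete shares (light green), and Plin4, Plin5 and G0s2 are complete coding in full.

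Between the libraries, most of the set was slightly higher in library 2. The ratio of expected counts, scaled by library totals, is given with its exact (Clopper-Pearson) 95% interval, which covers counting error only. The whole interval lay above 1 for 8 of 10 genes, where 12.8% of 11940 genes tested did so. For 1 of 10, Plin3, it lay below 1, where 10.4% did so. Since deeply counted genes pass such a rule more easily, the shares were also taken over 7034 genes with at least the counts of Dgat1. They were then 15.6% and 11.8%. Dgat1 has the fewest counts of the 10, so this floor does not match the depth of the other members. The sizes were small: 0 of 10 were past 2-fold in TPM after the addition of 1 to each value, as were 0.603% of all genes. The deposited TPM intervals of the libraries were apart for Dgat2, Pnpla2, Plin4 and G0s2, higher in library 2 in 4 of 10 against 2.82% of all genes. They were apart for Plin3, lower in library 2 in 1 of 10 against 3.14%.

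Lipe had the largest count ratio, at 1.25 with an interval of 1.16 to 1.36, followed by Dgat1 at 1.24 (1.07 to 1.43) and G0s2 at 1.22 (1.09 to 1.37). The lipase and synthesis genes with more counts had narrower intervals, 1.16 (1.13 to 1.20) for Pnpla2 and 1.13 (1.10 to 1.17) for Dgat2. Of the coat genes, Plin2 was at 1.12 (1.05 to 1.20), Plin5 at 1.08 (1.03 to 1.14) and Plin4 at 1.06 (1.03 to 1.09). Plin3 was at 0.875 (0.838 to 0.915), and Abhd5, at 0.943 (0.875 to 1.02), could not be told from 1. Plin2 was higher in library 2 by counts but had a log2 ratio of -0.04 by TPM, where its short transcripts weigh more. The median log2 ratio of TPM was 0.13 over the set and -0.0052 over all genes tested, and all 10 lay inside the middle 95% of all genes, from -0.42 to 0.44. With 1 group, these values compare the libraries and no condition.

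Adipocyte markers were also higher in library 2. Of 8 markers, 7 had enough counts, and all 7 had an interval above 1, where 12.8% of all genes tested did so. Their median log2 ratio was 1.20. After the addition of 1 to each TPM, 4 of them were past 2-fold, beside 0.603% of all genes tested. None was listed at 0, and Retn, with 3 and 6 counts, had too few. Adipoq was at 2.01 and 4.67 TPM, Cfd at 4.04 and 10.6, and Ucp1, the uncoupling protein of brown fat, at 0.900 and 8.74. Several of the 10 genes are also known from adipose tissue. Among them, Pnpla2, Lipe, Plin4, G0s2 and Dgat2 had count ratios above 1, and Abhd5 was at 0.943 (0.875 to 1.02). Ratios above 1 were not confined to these genes, with Plin2 at 1.12, Plin5 at 1.08 and Dgat1 at 1.24. Set side by side, library 2 minus library 1 was 22.02 TPM for Pnpla2, 17.8 for Dgat2, 4.81 for G0s2, 3.23 for Plin5, 3.13 for Lipe, 2.51 for Plin4 and 1.92 for Dgat1. It was -8.71 for Plin3, -1.46 for Plin2 and -1.02 for Abhd5, and 6.42 for the adipocyte coat gene Plin1. All 5 endothelial markers had an interval below 1, beside 10.4% of all genes tested, at a summed 164 and 151 TPM. Other cell types were mixed. The interval lay below 1 for 2 of 5 fibroblast, 1 of 5 mural and 0 of 5 macrophage markers. It lay above 1 for 0, 0 and 2 of them. Of 3 mesothelial markers 2 lay below 1 and 1 above, and of 7 heart muscle markers 3 below and 3 above. Of 5 skeletal muscle markers, 1 lay below and 2 above. The part of any cell type in the differences of the 10 genes was not tested, and in whole tissue fewer cells of a type and less RNA per cell cannot be told apart.

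**Figure D4:**
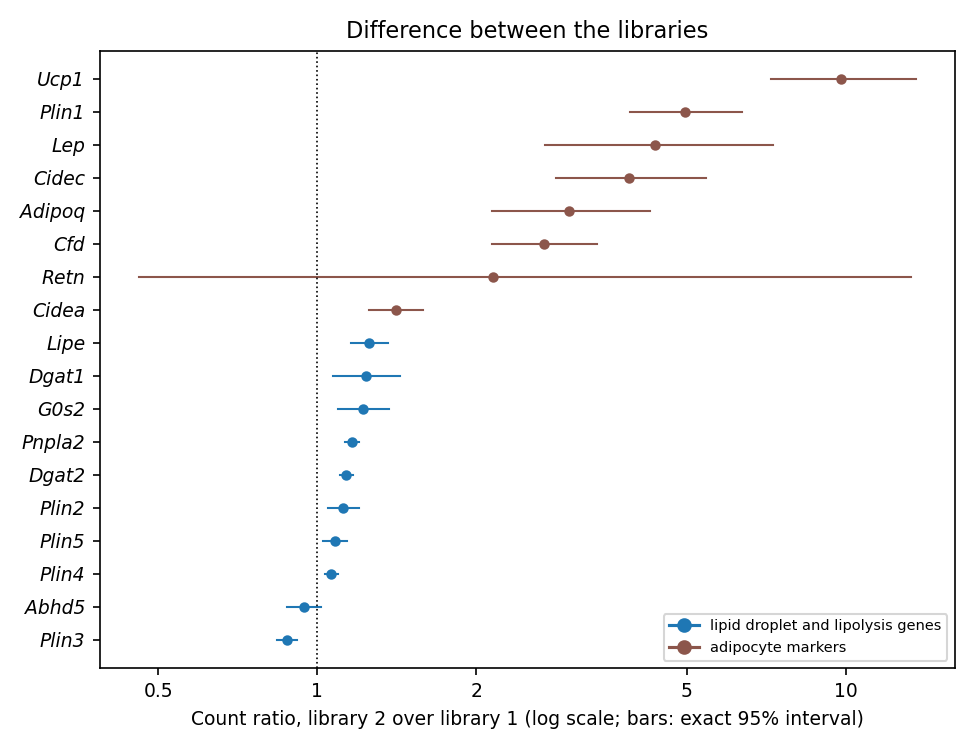
Ratio of expected counts, library 2 over library 1 (log scale), with exact 95% intervals, for the 10 genes (blue) and 8 adipocyte markers (brown). The 10 genes lie between 0.875 and 1.25, while the markers lie above them, from 1.41 for Cidea to 9.78 for Ucp1.

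The rest of the pathway was described from lists of genes with known roles. Of 15 other droplet coat and fusion genes, 12 had a mean TPM of at least 1 and at least 10 counts. Fitm2 and Fitm1, which help droplets bud from the endoplasmic reticulum, were at 62.2 ± 0.495 and 57.9 ± 2.40 TPM, and the droplet GTPase Rab18 at 47.5 ± 0.884. These levels were near those of Plin2, Plin4 and Plin5. Cidea, a droplet fusion protein, was at 17.8 ± 4.14 TPM. In this list the whole interval of the count ratio lay above 1 for 4 of 12 and below 1 for 0, against 12.8% and 10.4% of all genes tested. Plin1 and Cidec were past 2-fold, at 1.79 and 8.21 TPM and at 1.3 and 5.69 TPM. The 4 genes with intervals above 1 were Plin1, Cidec, Cidea and Hsd17b11, and all but Hsd17b11 are also among the adipocyte markers above.

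Among other lipases, 13 of 14 listed symbols were found and 10 had enough counts. Lpl, which frees fatty acids from circulating lipoproteins, was at 1131 ± 6.39 TPM, above every one of the 10 genes. Ces1d, a carboxylesterase with triacylglycerol lipase activity, was at 101 ± 8.15 TPM, Pnpla8, a mitochondrial and peroxisomal phospholipase, at 46.5 ± 0.311 and Mgll, which cleaves the last acyl chain after Lipe, at 31.7 ± 1.58. Mgll was thus above Lipe and below Pnpla2 in both libraries. The whole interval lay above 1 for 5 of the 10, Lpl at 1.01 among them, and below 1 for 0, beside the same 12.8% and 10.4%. The median log2 ratio was 0.13.

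Of 24 genes of glycerolipid synthesis, 20 had enough counts. The whole interval lay above 1 for 6 and below 1 for 2, beside 12.8% and 10.4% of all genes, and the median log2 ratio was 0.09. Acsl1, which activates fatty acids, was at 305 ± 12.3 TPM, Gpam, the mitochondrial enzyme of the first acylation, at 74.0 ± 11.2, Agpat3 at 68.4 ± 4.24 and Lpin1, the phosphatase that makes diacylglycerol, at 46.1 ± 3.12. Dgat2 was above all of these but Acsl1. Gpam had a count ratio of 1.25 and Lpin1 one of 0.896, on opposite sides of 1.

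Of 24 genes for upstream control, 22 had enough counts. The whole interval lay above 1 for 2 and below 1 for 4, beside 12.8% and 10.4% of all genes, and the median log2 ratio was -0.0033. Prkaca and Prkar1a, the catalytic and regulatory subunits of protein kinase A, which acts on perilipins and Lipe, were at 116 ± 1.12 and 113 ± 8.77 TPM. The adenylyl cyclase Adcy6 was at 43.9 ± 1.07 and the insulin receptor Insr at 35.8 ± 2.06. All 3 lists of enzymes and coat genes had medians above 0 and this list did not, with no test of the difference between lists.

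**Figure D5:**
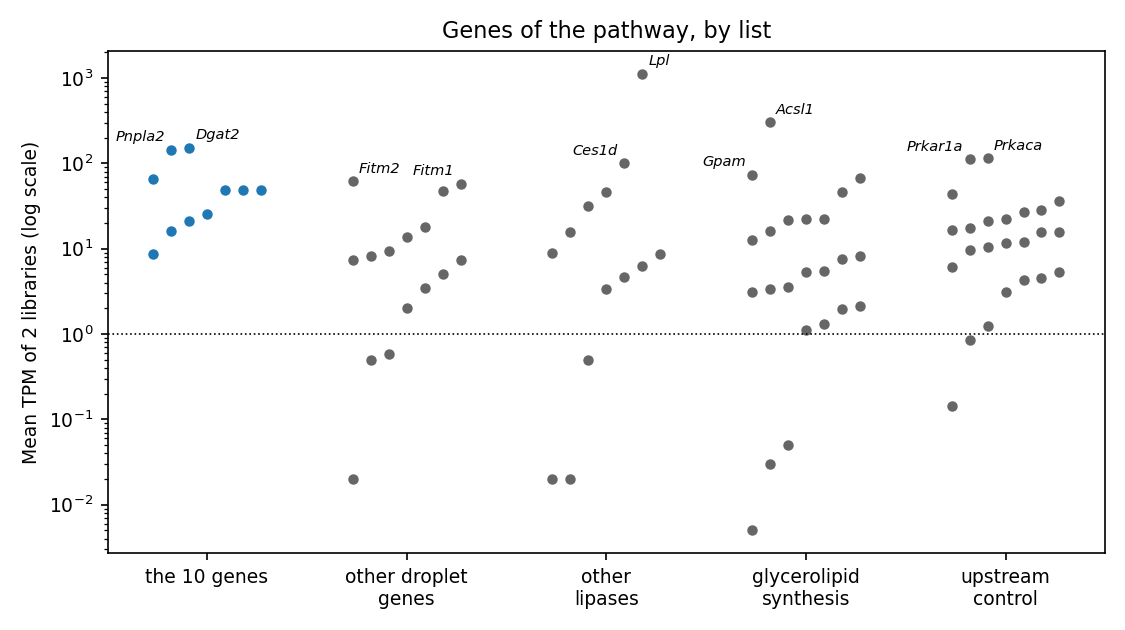
Mean TPM of the 2 libraries (log scale) for the 10 genes and for 4 lists of other pathway genes, 1 point per gene, with the highest genes of each list named and a dotted line at 1 TPM. Genes at 0 are not drawn. The 10 genes lie between 8.58 and 153 TPM, and Lpl and Acsl1 lie above them.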

How the data were processed

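Total RNA of 2 heart libraries was sequenced from 300 ng of RNA each, with a directional kit after ribosomal RNA reduction, per the labels. The build is mm10 with GENCODE M21, per the deposited readme. Sequences printed are of that reference, not of CAST alleles. No aligner or tool version is named in the sources used here. The authors deposited gene and transcript tables with expected counts, TPM and FPKM and, per transcript, the percent of its gene. These have the column layout of RSEM and are called the first quantification. A deposited table in the layout of kallisto, with estimated counts and TPM, is the second. The deposited gene tables also give lower and upper TPM bounds, whose level is not stated.

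Members were set by symbol and not by value, but they and the lists were chosen with earlier results of these data known. Named genes were the members, the 4 highest of each list and genes past 2-fold, with transcripts that held at least 10% of a member in either quantification. Adipoq, Cfd, Ucp1, Pnpla2-203, Pnpla2-204, Lipe-201 and Lipe-204 were named after their values were seen. Genes tested had a mean TPM of at least 1 and at least 10 counts in a library. Log2 ratios used TPM plus a pseudocount of 1, which shrinks those of low genes. Shares were computed from transcript TPM and lay within 0.0397 percentage points of the deposited percent. TMM factors (edgeR 4.0.16) and size factors (DESeq2 1.42.0) came from rounded counts and served for scaling only, in R 4.3.3. Intervals were computed with scipy 1.17.1 in Python 3.11.15 and tested on simulated data. With 1 group there was no test between conditions and no p-value. Alternatives were the second quantification, FPKM, another pseudocount, other scalings, coding transcripts only, leaving out each library and, added after seeing the data, complete coding transcripts only.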

Additional observations from a re-analysis of the deposited data

How the results depend on the processing

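All 10 genes were detected under every alternative run. Leaving out a library could not change this, since all 10 were detected in both. The 8 genes higher and 1 lower in library 2 were the same under TMM, DESeq2 size factors, nuclear protein-coding totals and the second quantification. Ratios between genes moved by more than the spread of the libraries when other transcripts were counted. Over complete coding transcripts the levels of Plin4, Plin5, G0s2 and Dgat2 stayed within that spread, while those of the other 6 genes did not. Over all coding transcripts, the perilipin share of Plin5 was 24.02%, of Plin4 24.2% and of Plin2 17.4%, and over complete coding transcripts 32.0%, 32.2% and 14.0%. The second quantification gave Plin5 19.7% and Plin4 20.5%. The ratio of Pnpla2 to Lipe was 8.45 in the second quantification, 4.03 over coding and 2.42 over complete coding transcripts. That of Abhd5 to Pnpla2 was 0.181, 0.182 and 0.319, and that of G0s2 to Pnpla2 was 0.192, 0.451 and 0.791, in the same order. The Dgat2 share was 96.5% over coding and over complete coding transcripts. The direction of Plin2 turned, from a log2 ratio of -0.04 by TPM to 0.15 in counts with TMM, 0.15 in counts with DESeq2 size factors and 0.31 in TPM of complete coding transcripts. With counts scaled by plain totals its ratio was already 1.12. The turn was thus seen with counts, and also within TPM when only complete coding transcripts were counted. The log2 ratio of Dgat1 was 0.75 in the second quantification. Leaving out each library in turn only gives the value of the other library. The perilipin shares were 21.97% to 23.2% for Plin5, 21.9% to 22.8% for Plin2 and 22.3% to 23.2% for Plin4. The Dgat2 share was 94.4% to 94.99%. The ratios were 8.82 to 9.20 for Pnpla2 to Lipe, 0.132 to 0.161 for Abhd5 to Pnpla2 and 0.172 to 0.179 for G0s2 to Pnpla2. No paired analysis was possible because there is only 1 group. Depth limits Dgat1 most, at 353 and 407 counts.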
